A study of Mus musculus with 12 samples.

Results

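The expression of 9 transcription factors that act in effector regulatory T cells (Treg) was examined in splenic Treg: Batf, Irf4, Prdm1, Gata3, Maf, Nfil3, Tbx21, Id2 and Ikzf3. They were chosen by symbol, and each matched 1 of the 41457 genes in the count tables. The 12 RNA libraries comprised 3 each of CD18wt unstimulated, CD18Foxp3 unstimulated, CD18wt stimulated and CD18Foxp3 stimulated Treg. CD18Foxp3 mice carry a floxed Itgb2 gene, which encodes the beta-2 integrin chain CD18, together with a Cre recombinase driven from the Foxp3 locus, so that Itgb2 is deleted in Foxp3-expressing cells, and CD18wt mice were their littermate controls. Animals of both genotypes carried a red fluorescent reporter switched on by the Cre, and the Treg were sorted from spleen as RFP+CD4+ cells. All cells were cultured overnight with 5 U/ml IL-2, and the stimulated groups also received 1 µg/ml anti-CD3 and 2 µg/ml anti-CD28, antibodies that engage the T cell receptor complex and its costimulator. The ages of these mice are not given in the sources used here.

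Resting Treg that meet antigen through the T cell receptor become effector Treg, which lose lymphoid-homing features and gain suppressive molecules and tissue-homing receptors. Irf4 and Batf are induced or active downstream of the receptor and bind DNA together at composite sites. Prdm1 encodes Blimp-1, a repressor of terminal effector cells, and Nfil3 and Id2 are further regulators of effector differentiation. Tbx21 (T-bet) and Gata3 are the lineage factors of Th1 and Th2 cells and are also used by Treg in the corresponding settings, Maf (c-Maf) drives Il10 in many T cells, and Ikzf3 encodes Aiolos of the Ikaros family.

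The libraries held 10665174 to 19005482 reads in exons. The lowest depth was in CD18wt unstimulated replicate 3, which also had the lowest share of intron reads (3.32%). The others ran from 3.655%, in CD18wt stimulated replicate 2, to 5.99%. Itgb2, the deleted gene, measured 387 to 465 TPM in CD18wt unstimulated and 229 to 257 TPM in CD18Foxp3 unstimulated Treg, a fall of 0.85 on the log2 scale (SE 0.09, edgeR adjusted p = 0.0041). In stimulated Treg, it measured 329 to 331 against 131 to 202 TPM, a log2 fold change of -0.94 (SE 0.17, edgeR adjusted p = 0.216). These counts cover the whole gene, whereas the study's Cre removes exon 3, so the remaining reads do not measure CD18 protein. By flow cytometry, the study reported loss of CD18 from Foxp3-expressing cells in several organs. The 6 Treg markers (Foxp3, Il2ra, Ctla4, Ikzf2, Cd4 and Cd3e) were all detected and summed to 1336 to 3678 TPM. Summed markers of other cells that use some of the 9 factors were low, at 9.66 to 39.3 TPM for B cells, 1.40 to 6.19 TPM for plasma cells, and 14.1 to 39.0 TPM for cytotoxic and innate lymphoid cells, with Ncr1 at 0 in all libraries. Some of these sums moved with stimulation: the B cell sum was 27.4 to 39.3 TPM in unstimulated and 9.66 to 21.6 TPM in stimulated libraries, and the cytotoxic and innate sum 28.3 to 39.0 and 14.1 to 28.3 TPM, and their part in the results on stimulation was not tested. In bulk RNA, fewer cells expressing a gene and less RNA per cell cannot be told apart.

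The 250 bases before the start sites of the 4 factors that rose on stimulation in both genotypes are given here to show the sequence next to the genes that rose. They are RefSeq sequences of build GRCm38.p6, read in the direction of transcription, for Irf4 (chr13:30748983-30749232, plus strand), Tbx21 (chr11:97115332-97115581, minus strand), Prdm1 (chr10:44458749-44458998, minus strand) and Nfil3 (chr13:52981040-52981289, minus strand). Capitals mark matches to the AP-1 motif TGANTCA, which Batf and its Jun partners bind, or to TATAAA.
Irf4: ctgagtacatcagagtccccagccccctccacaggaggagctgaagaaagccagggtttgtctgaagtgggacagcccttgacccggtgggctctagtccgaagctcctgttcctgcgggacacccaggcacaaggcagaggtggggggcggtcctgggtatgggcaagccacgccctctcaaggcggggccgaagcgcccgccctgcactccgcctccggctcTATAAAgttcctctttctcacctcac
Tbx21: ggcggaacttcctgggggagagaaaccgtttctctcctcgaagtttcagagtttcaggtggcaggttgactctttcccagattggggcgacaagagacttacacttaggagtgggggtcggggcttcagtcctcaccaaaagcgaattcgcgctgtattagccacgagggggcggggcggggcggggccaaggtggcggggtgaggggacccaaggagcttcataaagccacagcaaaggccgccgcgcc
Prdm1: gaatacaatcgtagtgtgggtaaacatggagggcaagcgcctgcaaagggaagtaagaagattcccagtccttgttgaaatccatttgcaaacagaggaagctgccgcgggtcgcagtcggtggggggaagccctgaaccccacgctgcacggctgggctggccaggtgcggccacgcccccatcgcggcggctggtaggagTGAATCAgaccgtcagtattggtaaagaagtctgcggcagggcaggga
Nfil3: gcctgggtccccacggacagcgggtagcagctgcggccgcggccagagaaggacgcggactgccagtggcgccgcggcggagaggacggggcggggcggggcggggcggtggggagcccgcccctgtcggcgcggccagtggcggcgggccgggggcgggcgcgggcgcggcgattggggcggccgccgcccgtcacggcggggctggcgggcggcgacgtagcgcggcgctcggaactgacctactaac
Among the 7 factors with a sequence (all but Maf and Ikzf3), TGANTCA was matched in 1, Prdm1, at position -48, and in 6.75% of all 32851 promoters searched over the same length on both strands. TATAAA was matched only in Irf4 among the 7, at position -26, and in 12.4% of all promoters. None of the 7 windows held a pair of IRF half-sites (GAAA, any 2 bases, GAAA, found in 2.98% of promoters), an NFAT site (TGGAAA, 18.6%) or a CRE (TGACGTNA, 2.52%), and 4 held the NF-kB motif (GGG, any 5 bases, CC), as did 45.8% of all promoters. GC content of the 4 windows ran from 59.2% in Prdm1 to 81.6% in Nfil3. The Prdm1 start used by RefSeq lies well inside the region that the count tables assign to this gene.

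Before stimulation, Batf was the most abundant of the 9 factors, at 172 ± 10.3 TPM (SD, n = 3) in CD18wt and 204 ± 25.3 TPM (SD, n = 3) in CD18Foxp3 Treg. TPM, a transcript abundance scaled to a fixed total per library, is corrected for length and so allows genes to be ranked. Gata3 (110 ± 22.0 TPM in CD18wt, SD, n = 3) and Maf (107 ± 18.5 TPM) came next in CD18wt Treg, and their libraries overlapped. Id2, Ikzf3 and Nfil3 formed an overlapping middle group in CD18wt Treg, at 48.0, 46.3 and 40.9 TPM, with Id2 spread over 29.1 to 58.3 TPM. Irf4 (27.8 TPM), Tbx21 (14.4 TPM) and Prdm1 (10.5 TPM) were the lowest, each separated from the next without overlap. After stimulation Irf4 ranked first in both genotypes, at 467 ± 105 TPM in CD18wt and 416 ± 85.7 TPM in CD18Foxp3 Treg (SD, n = 3 each), and no library of Batf, the next factor, reached it in either genotype. The summed level of the 9 factors was 552 to 602.6 TPM in CD18wt unstimulated, 555 to 666 TPM in CD18Foxp3 unstimulated, 1020 to 1115 TPM in CD18wt stimulated and 1165 to 1308 TPM in CD18Foxp3 stimulated Treg.

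**Figure D1:**
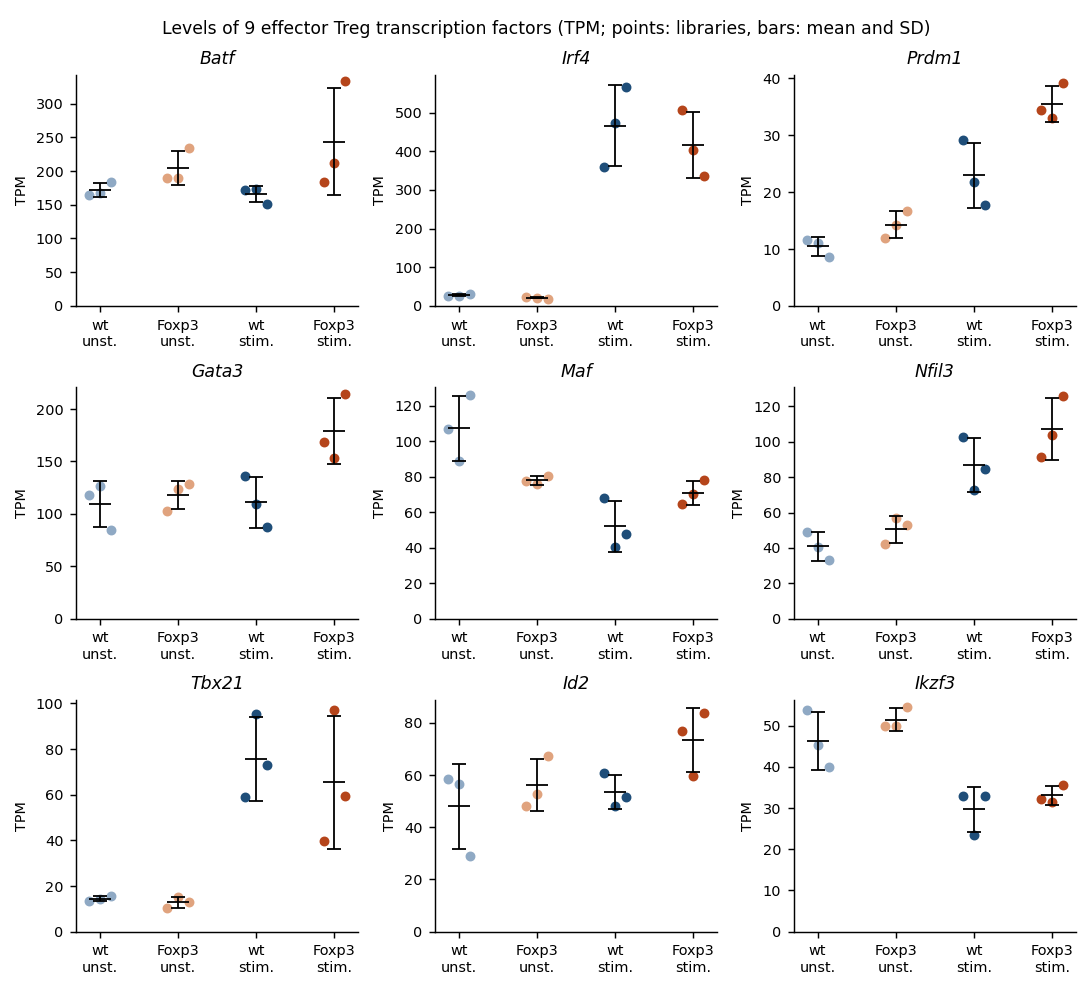
Level of each of the 9 factors in TPM on a linear axis from 0, with 1 point per library and the mean and SD of 3 libraries as bars, for CD18wt (wt) and CD18Foxp3 (Foxp3) Treg, unstimulated (unst.) and stimulated (stim.). Irf4 rose from 19.1 to 30.6 TPM in the unstimulated libraries to 337 to 568 TPM in the stimulated ones, while Maf and Ikzf3 had their highest values before stimulation.

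Stimulation raised Irf4, Tbx21, Prdm1 and Nfil3 in both genotypes and lowered Ikzf3 in both. A gene was counted as changed at a fold change of at least 1.5 with an adjusted p of at most 0.01 in edgeR's quasi-likelihood test. In CD18wt Treg 6 of the 9 factors passed, 4 higher and 2 lower, against 33.6% of all 11930 genes tested. In CD18Foxp3 Treg 5 of 9 passed, 4 higher and 1 lower, against 38.6% of 12019 genes. The median log2 fold change of the 9 was -0.24 in CD18wt and 0.23 in CD18Foxp3 Treg, beside 0.02 and 0.01 over all genes. Both comparisons rest on fold changes scaled by TMM, which sets the bulk of genes to no change. On the TPM scale the median gene rose by 0.36 in CD18wt and 0.31 in CD18Foxp3 Treg on log2(TPM + 1), so a TPM ratio and a log2 fold change of the same gene differ by about that shift.

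Irf4, the interferon regulatory factor induced in proportion to receptor signalling, measured 26.7, 26.1 and 30.6 TPM in CD18wt unstimulated libraries and 359, 473 and 568 TPM in CD18wt stimulated ones. The CD18Foxp3 libraries measured 22.2, 21.8 and 19.1 TPM unstimulated and 507, 404 and 337 TPM stimulated. The lowest stimulated library thus lay far above the highest unstimulated one in both genotypes. The log2 fold change was 3.67 (SE 0.19, edgeR adjusted p = 6.2e-08) in CD18wt and 3.94 (SE 0.19, edgeR adjusted p = 1.3e-06) in CD18Foxp3 Treg.

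Tbx21, the Th1 lineage factor, measured 13.3, 14.5 and 15.4 TPM in CD18wt unstimulated and 58.9, 95.2 and 73.0 TPM in CD18wt stimulated Treg. In CD18Foxp3 Treg it measured 10.5, 15.3 and 13.1 TPM before and 39.7, 97.0 and 59.6 TPM after stimulation. The groups did not overlap on stimulation, and the stimulated libraries were widely spread in CD18Foxp3 Treg. The log2 fold change was 2.01 (SE 0.22, edgeR adjusted p = 9.6e-06) and 1.96 (SE 0.29, edgeR adjusted p = 0.00043), respectively.

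Prdm1, which encodes Blimp-1, was the least abundant factor in CD18wt Treg, at 11.6, 11.1 and 8.61 TPM before and 29.2, 21.8 and 17.8 TPM after stimulation. Its CD18Foxp3 libraries measured 11.9, 14.3 and 16.7 TPM before and 34.4, 33.1 and 39.1 TPM after stimulation. Stimulated libraries were above unstimulated ones within each genotype, with a log2 fold change of 0.73 (SE 0.20, edgeR adjusted p = 0.0073) in CD18wt and 0.95 (SE 0.14, edgeR adjusted p = 0.00043) in CD18Foxp3 Treg. The call in CD18wt Treg was lost when any 1 of 5 libraries was left out (all but stimulated replicate 3), with edgeR adjusted p up to 0.052, and with upper-quartile scaling (0.65, edgeR adjusted p = 0.015).

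Nfil3, a basic leucine zipper regulator, measured 49.0, 40.5 and 33.1 TPM in CD18wt unstimulated and 103, 72.8 and 84.6 TPM in CD18wt stimulated Treg. In CD18Foxp3 Treg it measured 42.2, 56.7 and 52.7 TPM before and 91.2, 104 and 126 TPM after stimulation, again without overlap. The log2 fold change was 0.68 (SE 0.16, edgeR adjusted p = 0.0037) and 0.72 (SE 0.16, edgeR adjusted p = 0.0036). The call was lost in CD18wt Treg without unstimulated replicate 2, unstimulated replicate 3 or stimulated replicate 1, with a log2 fold change of 0.55 to 0.81 over the libraries left out, and in CD18Foxp3 Treg without unstimulated replicate 1, unstimulated replicate 3 or stimulated replicate 3, with 0.57 to 0.82.

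Ikzf3 fell in both genotypes. It measured 53.8, 45.3 and 39.9 TPM in CD18wt unstimulated and 33.0, 23.4 and 32.8 TPM in CD18wt stimulated Treg, and 49.9, 49.9 and 54.6 TPM against 32.2, 31.4 and 35.7 TPM in CD18Foxp3 Treg. No stimulated library reached the lowest unstimulated one of its genotype, and the B cell marker sum was also lower in the stimulated libraries. The log2 fold change was -1.05 (SE 0.14, edgeR adjusted p = 5.8e-05) in CD18wt and -1.001 (SE 0.11, edgeR adjusted p = 5.4e-05) in CD18Foxp3 Treg. On log2(TPM + 1), where the whole distribution shifts upward, the CD18wt change was -0.63 and missed the threshold (limma adjusted p = 0.012).

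Maf fell past the threshold in CD18wt Treg. It measured 107, 89.0 and 126 TPM in CD18wt unstimulated and 68.2, 40.4 and 48.0 TPM in CD18wt stimulated libraries, without overlap, a log2 fold change of -1.46 (SE 0.20, edgeR adjusted p = 6.7e-05). In CD18Foxp3 Treg it measured 77.8, 75.8 and 80.4 TPM before and 64.8, 70.1 and 78.3 TPM after stimulation, and the groups overlapped. The log2 fold change there was -0.50 (SE 0.11, edgeR adjusted p = 0.0031), under the 1.5-fold limit, although it passed that limit (-0.59, edgeR adjusted p = 0.0022) without CD18Foxp3 stimulated replicate 3. Whether the genotypes differ in this response is tested below. Up to 135 reads in a library were assigned to Gm15655, which overlaps Maf on the opposite strand, and the counting is not stated to use strand. Of the Maf reads, 94.9% were uniquely placed.

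Batf, Gata3 and Id2 did not pass on stimulation in either genotype. Batf had a log2 fold change of -0.46 (SE 0.14, edgeR adjusted p = 0.017) in CD18wt and -0.11 (SE 0.20, edgeR adjusted p = 0.66) in CD18Foxp3 Treg, where it turned positive with scaling to library size alone (0.07) or on TPM (0.21). The CD18wt libraries of Batf overlapped, at 165 to 184 TPM before and 152 to 173 TPM after stimulation. Over the alternatives that kept every library, the CD18wt value ran from -0.54 to -0.058. Gata3 had -0.37 (SE 0.18, edgeR adjusted p = 0.10) in CD18wt Treg, which became 0.02 on TPM, and 0.23 (SE 0.15, edgeR adjusted p = 0.21) in CD18Foxp3 Treg, which became 0.58 on TPM (limma adjusted p = 0.012). The CD18Foxp3 libraries of Gata3 measured 103 to 128 TPM before and 153 to 214 TPM after stimulation, without overlap. Id2, an inhibitor of E proteins, had -0.24 (SE 0.21, edgeR adjusted p = 0.37) in CD18wt Treg, which became 0.21 on TPM, and 0.03 (SE 0.17, edgeR adjusted p = 0.89) in CD18Foxp3 Treg, which became 0.38 on TPM (limma adjusted p = 0.087). In CD18wt unstimulated libraries Id2 measured 58.3, 56.5 and 29.1 TPM, so replicate 3 stood apart, and 60.9, 48.2 and 51.6 TPM in stimulated ones. With 1 library left out, the CD18wt value ran from -0.47 to -0.089 (edgeR adjusted p 0.024 to 0.79).

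**Figure D2:**
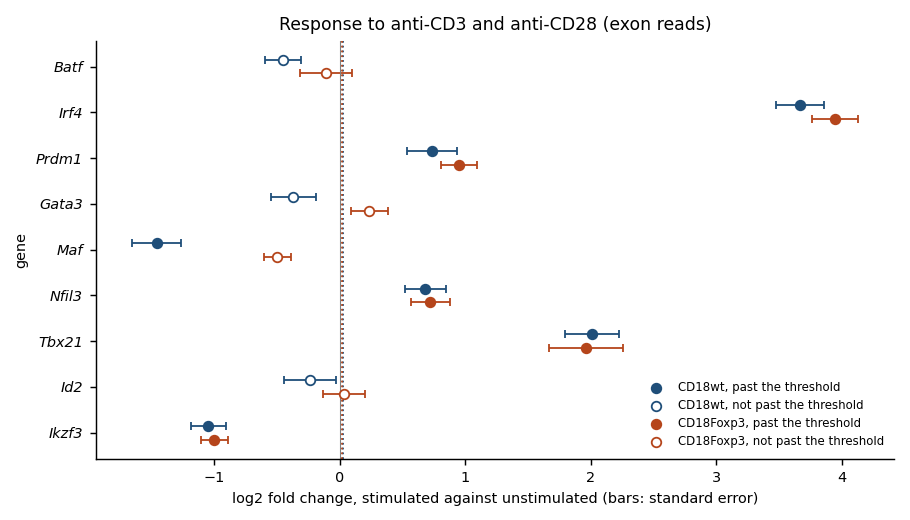
Log2 fold change of exon reads (stimulated against unstimulated, TMM scale) with its standard error for the 9 factors in CD18wt and CD18Foxp3 Treg, with filled points past the threshold, open points not, and dotted lines at the median of all genes. Irf4 stands at 3.67 and 3.94, and Maf at -1.46 in CD18wt against -0.50 in CD18Foxp3 Treg.

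Intron reads, which can come from unspliced RNA, were examined as a second measure of the same libraries. In CD18wt Treg 2 of the 8 factors with enough intron reads passed the same threshold (7.80% of 9492 genes did, or 740, which became 159 to 1060 with 1 library left out and 188 with a replicate block), and in CD18Foxp3 Treg 3 of 9 did (30.4% of 10260 genes). Irf4 rose in introns in both genotypes, by 3.96 (SE 0.45, edgeR adjusted p = 4.7e-05) and 2.63 (SE 0.25, edgeR adjusted p = 1.2e-10) on the log2 scale. Its intron reads numbered 35, 30 and 5 in CD18wt unstimulated and 203, 321 and 1088 in CD18wt stimulated libraries, so replicate 3 of the latter stood apart. Maf fell in introns in CD18wt Treg (-1.26, SE 0.30, edgeR adjusted p = 0.0071), a call that was lost when any 1 library other than CD18wt unstimulated replicate 3 was left out, with a range of -1.50 to -1.14. Tbx21 rose in CD18Foxp3 Treg (1.11, SE 0.31, edgeR adjusted p = 0.0029), which was lost without unstimulated replicate 3 (0.84) or stimulated replicate 2 (0.70).

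Nfil3 in CD18Foxp3 Treg was the case in which intron and exon reads passed the threshold in opposite directions. Its intron reads numbered 95, 113 and 69 in CD18Foxp3 unstimulated and 44, 41 and 33 in CD18Foxp3 stimulated libraries, without overlap, a log2 fold change of -1.80 (SE 0.30, edgeR adjusted p = 1.3e-06) while its exon reads rose by 0.72. Introns thus made up 9.41% to 14.6% of the reads of Nfil3 before and 2.46% to 3.62% after stimulation. In CD18wt Treg the intron reads numbered 85, 55 and 1 before and 16, 13 and 28 after stimulation, with a log2 fold change of -1.58 (SE 0.68, edgeR adjusted p = 0.11). The single read was in CD18wt unstimulated replicate 3, the library with the lowest intron share, and without it the value was -2.09 (edgeR adjusted p = 0.0030).

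**Figure D3:**
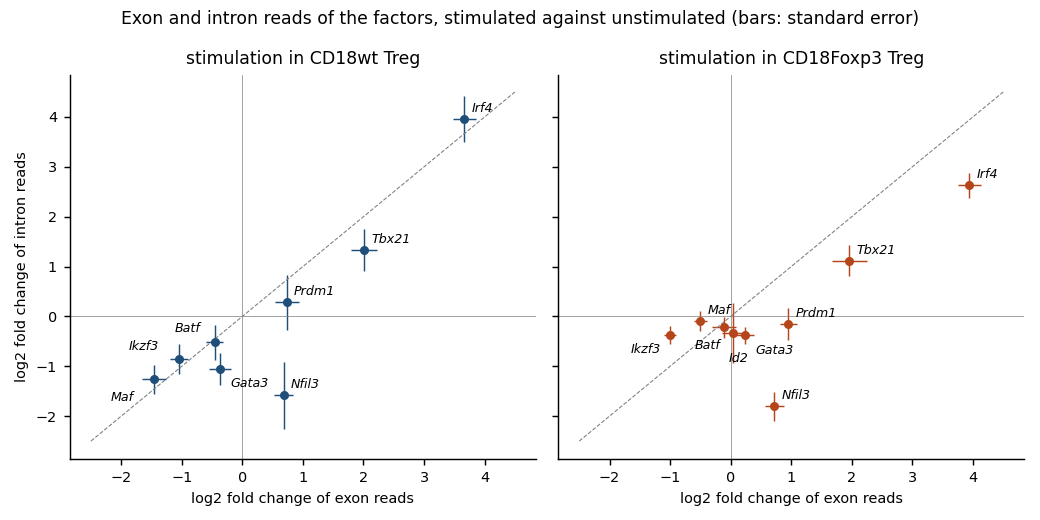
Log2 fold change of intron reads (vertical) against that of exon reads (horizontal) on stimulation, with standard errors, in CD18wt (left) and CD18Foxp3 (right) Treg, where the dashed line marks equal change. Irf4 lies at the upper right in both panels, and Nfil3 lies below zero on the intron axis (-1.58 and -1.80) and above zero on the exon axis.

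The comparison of CD18Foxp3 with CD18wt Treg asked whether these factors differed between the genotypes. The study reports that CD18Foxp3 mice spontaneously develop inflammation of the skin and of several organs, with enlarged spleens. Loss of CD18 in the Treg and an inflamed host cannot be told apart in this comparison. None of the 9 passed the threshold in unstimulated Treg (0.135% of 11829 genes did), and 3 of 9 had an unadjusted p under 0.05, as did 9.59% of all genes. DESeq2 called 86 genes, none of them among the 9. Maf was lower in all CD18Foxp3 libraries (75.8 to 80.4 TPM, against 89.0 to 126 TPM), with a log2 fold change of -0.49 (SE 0.13, edgeR adjusted p = 0.19). With 1 library left out, Maf ran from -0.63, past the 1.5-fold limit, to -0.32 without CD18wt unstimulated replicate 3 (edgeR adjusted p 0.071 to 0.61). Its adjusted p ran from 0.00017 (edgeR with no filter on low counts) to 0.63 (edgeR on all 12 libraries) over the alternatives that kept every library, and was 0.023 in DESeq2, all with a change under the 1.5-fold limit. Irf4 was also below every CD18wt library (19.1 to 22.2 against 26.1 to 30.6 TPM), with -0.42 (SE 0.12, edgeR adjusted p = 0.22). Prdm1 (11.9 to 16.7 against 8.61 to 11.6 TPM, log2 fold change 0.42, SE 0.15, edgeR adjusted p = 0.33) and Batf (189 to 233 against 165 to 184 TPM, log2 fold change 0.22, SE 0.10, edgeR adjusted p = 0.54) lay above. These 4 factors did not overlap between genotypes, nor did 15.6% of all genes. With 3 libraries against 3, a two-sided exact test that permuted the libraries, on log2(TPM + 1), cannot go below p = 0.1, the value it gave for each of the 4.

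In stimulated Treg, 7 of the 9 factors had a positive log2 fold change in CD18Foxp3 against CD18wt, and none passed the threshold. The median over all genes was -0.003, and the share of all genes with a positive value was not computed. No gene passed (0% of 11930; 583 had an unadjusted p under 0.05, and DESeq2 called 22). Of the 9, 5 had an unadjusted p under 0.05, against 4.89% of all genes. Gata3 measured 169, 153 and 214 TPM in CD18Foxp3 and 136, 109 and 88.0 TPM in CD18wt stimulated Treg, without overlap (log2 fold change 0.69, SE 0.20, edgeR adjusted p = 0.71). Prdm1 (0.64, SE 0.20, edgeR adjusted p = 0.77) and Batf (0.56, SE 0.22, edgeR adjusted p = 0.93) did not overlap either, and 9.43% of all genes did not. Batf was spread over 184 to 334 TPM in CD18Foxp3 stimulated Treg, with the highest value in replicate 3. Id2 (0.47, SE 0.18, edgeR adjusted p = 0.92), Maf (0.47, SE 0.18, edgeR adjusted p = 0.94), Nfil3 (0.32, SE 0.17), Ikzf3 (0.18, SE 0.16), Irf4 (-0.15, SE 0.20) and Tbx21 (-0.23, SE 0.30) had overlapping libraries.

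**Figure D4:**
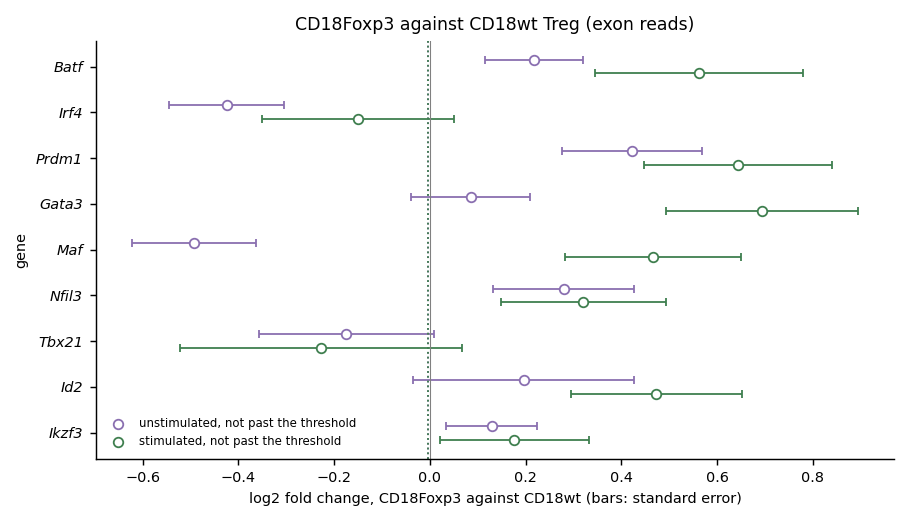
Log2 fold change of exon reads in CD18Foxp3 against CD18wt Treg with its standard error, for unstimulated and stimulated cultures, where open points did not pass the threshold and dotted lines mark the median of all genes. Maf stands at -0.49 before and 0.47 after stimulation, and Gata3 at 0.09 and 0.69.

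The genotype and stimulation comparisons share libraries, and the interaction of genotype and stimulation tested directly whether the responses differed. None of the 9 factors passed, as for all 12636 genes (0%; 485 had an unadjusted p under 0.05, and DESeq2 called 1). Maf had the largest interaction among the 9, a response 0.96 higher on the log2 scale in CD18Foxp3 than in CD18wt Treg (SE 0.24, unadjusted p = 0.0011 and adjusted p = 0.85 in edgeR). It kept this direction in all alternatives, at 0.78 to 1.17, and passed only when genes with low counts were not removed (edgeR adjusted p = 0.0067). Gata3 had 0.60 (SE 0.25, unadjusted p = 0.030 and adjusted p = 0.99 in edgeR), and the other 7 lay between -0.06 and 0.34.

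Related genes were described as lists on stimulation. Of 8 antagonists and central Treg factors, 6 fell and 1 rose in each genotype, 87.5% of the list beside 33.6% and 38.6% of all genes. Klf2, which maintains lymphoid homing, fell by 2.99 (SE 0.50) on the log2 scale in CD18wt Treg and had a log2 fold change of -3.18 (SE 0.16) in CD18Foxp3 Treg. The corresponding values were -2.75 (SE 0.25) and -2.28 (SE 0.26) for Bcl6, the factor opposed to Blimp-1, -2.08 (SE 0.30) and -2.21 (SE 0.17) for Satb1, and -1.51 (SE 0.15) and -2.02 (SE 0.14) for Tcf7, all past the threshold. Bach2, a repressor of effector differentiation, rose by 1.30 (SE 0.16) and 0.87 (SE 0.17). The list's median was -1.45 in CD18wt and -1.63 in CD18Foxp3 Treg.

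Of the relatives and partners of the 9 factors, 2 of 27 tested rose and 4 fell in CD18wt Treg, and 3 of 26 rose and 8 fell in CD18Foxp3 Treg, with medians of -0.25 and -0.31. Those past the threshold were 22.2% and 42.3% of the list, beside 33.6% and 38.6% of all genes. Irf8, the closest relative of Irf4, rose by 3.94 (SE 0.31) and 3.40 (SE 0.30), and the small Maf protein gene Mafg by 1.44 (SE 0.15) and 1.38 (SE 0.16). In CD18Foxp3 Treg Ikzf2 also rose past the threshold (0.90, SE 0.15), beside 0.35 (SE 0.14) in CD18wt Treg. The 4 that fell in CD18wt Treg were Dbp (-1.99, SE 0.30), Runx1 (-0.98, SE 0.20), Irf2 (-0.79, SE 0.17) and Ikzf1 (-0.67, SE 0.12). All 4 also fell past the threshold in CD18Foxp3 Treg. The AP-1 partners of Batf fell in CD18Foxp3 Treg, with log2 fold changes of -3.88 (SE 0.24) for Jun, -2.55 (SE 0.34) for Junb and -1.71 (SE 0.19) for Jund. In CD18wt Treg they had log2 fold changes of -3.89 (SE 1.22, edgeR adjusted p = 0.061), -2.15 (SE 0.96, edgeR adjusted p = 0.14) and -1.57 (SE 0.60, edgeR adjusted p = 0.088). There CD18wt unstimulated replicate 3 stood apart, with 48.3 TPM of Jun against 793 and 1013 TPM in the other unstimulated libraries, 311 TPM of Junb against 3423 and 3711 TPM, and 605 TPM of Jund against 1900 and 2126 TPM. Without that library, an alternative chosen after seeing the data, the values were -4.43 (edgeR adjusted p = 9.3e-07), -2.67 (edgeR adjusted p = 3.0e-07) and -1.94 (edgeR adjusted p = 0.014), and 7 rather than 4 of the relatives and partners fell. None of the genes in these lists passed in a genotype comparison or the interaction, which does not show that their levels were equal. Some did not overlap between genotypes in unstimulated TPM, in either direction, nor did 15.6% of all genes. Itgae measured 21.7 to 28.6 TPM in CD18wt and 46.0 to 85.3 TPM in CD18Foxp3 Treg, and Zfpm1 60.9 to 71.3 and 43.0 to 47.9 TPM.

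Of 12 other transcription factors of effector Treg, 3 rose in CD18wt and 4 in CD18Foxp3 Treg, and none fell, beside 33.6% and 38.6% of all genes past the threshold in either direction. Myb rose by 3.19 (SE 0.20) and 3.93 (SE 0.15), and Rbpj, the Notch effector, by 2.63 (SE 0.14) and 3.10 (SE 0.15). Of 29 surface and secreted molecules of effector Treg, 8 rose and 5 fell in CD18wt and 11 rose and 4 fell in CD18Foxp3 Treg, or 44.8% and 51.7% of the list beside 33.6% and 38.6% of all genes. Gzmb, a cytotoxic protease, rose by 3.52 (SE 0.27) and 4.20 (SE 0.35), Il10 by 2.69 (SE 0.27) and 3.27 (SE 0.28), and Tnfrsf9 by 2.02 (SE 0.14) and 2.61 (SE 0.14). The chemokine receptor gene Cxcr3, a target of T-bet, fell, with log2 fold changes of -1.29 (SE 0.17) and -2.03 (SE 0.12), while Tbx21 rose.

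**Figure D5:**
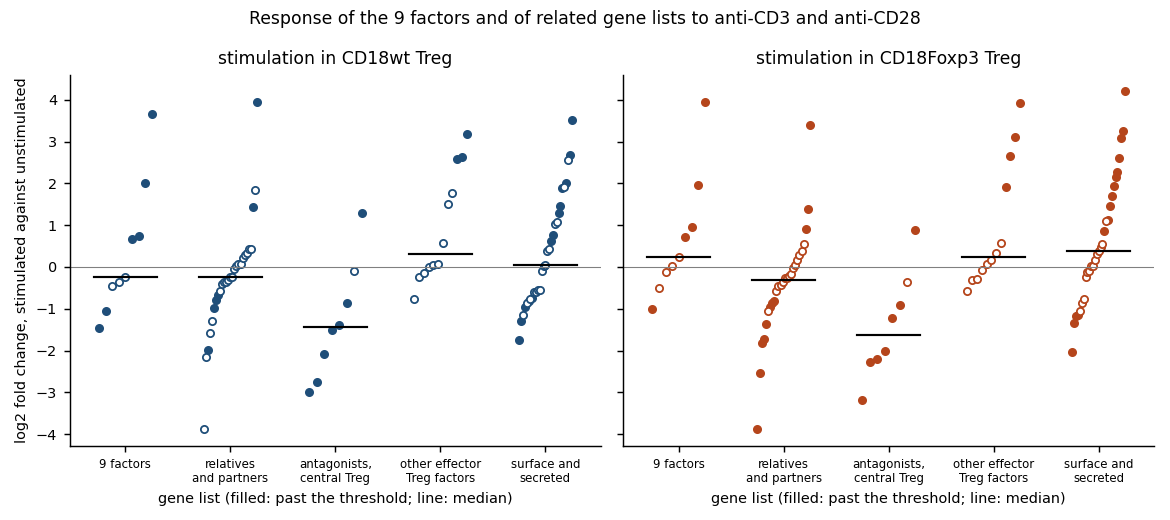
Log2 fold change on stimulation of the 9 factors and of 4 lists of related genes in CD18wt (left) and CD18Foxp3 (right) Treg, with 1 point per gene, filled where past the threshold, and a line at the median of each list. The antagonists and central Treg factors have the lowest medians (-1.45 and -1.63), and the 9 factors span -1.46 to 3.94.

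The genes whose pattern over the 12 libraries was most like that of each factor were found by the root mean square difference of centred log2 CPM (counts scaled to library size) among 12636 genes, as a description. Ikzf3 had the nearest neighbour, Snx14, at 0.09. The difference is not scaled to a factor's own range over the libraries, which was 1.45 for Ikzf3, 1.06 for Id2 and 4.48 for Irf4. Prdm1 and Nfil3 were near each other (0.21), with Nfil3 the third nearest gene to Prdm1, and Gata3 was the third nearest to Id2 (0.20). Gata3 itself was nearest to Ebi3 (0.14), a subunit of the suppressive cytokine IL-35, Maf to Cir1 (0.20), Batf to Cenpa (0.15), Nfil3 to Cerk (0.15), Tbx21 to Bysl (0.23) and Irf4 to Shmt1 (0.27). All of these genes were measured in the same 12 libraries, so genes that respond alike to stimulation lie near each other.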

How the data were processed

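Poly(A) RNA of sorted, cultured Treg was sequenced, and the authors aligned the reads to GRCm38 with CLC Genomics Workbench. The deposited tables give counts of exon reads, uniquely placed exon reads and intron reads per gene, and TPM computed by the authors. The strand setting is not given in the sources used here. Counts were tested with edgeR 4.0.16 (quasi-likelihood, TMM, minimum count 10, Benjamini-Hochberg over all genes tested) on the 6 libraries of each comparison, or all 12 for the interaction, in R 4.3.3. Alternatives used DESeq2 1.42.0, limma 3.58.1 on log2(TPM + 1) or log2(TPM + 0.1), other scalings, no filter, a replicate block and omission of each library. Described were the 9 factors, Itgb2, some of the genes past the threshold in each list, and some of the 3 nearest genes of each factor. The factors and lists were chosen with earlier results of these data known. Libraries of a group are labelled as biological replicates, and the study describes its expression values as those of individual mice. Whether unstimulated and stimulated libraries came from the same mice is not stated in the labels. Depth limits mainly intron values, since counts of a few reads carry large counting error.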

Additional observations from a re-analysis of the deposited data

How the results depend on the processing

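The number of the 9 factors past the threshold was 4 to 6 in CD18wt and 4 to 5 in CD18Foxp3 Treg on stimulation when 1 library was left out, 5 in CD18wt Treg with upper-quartile scaling or on TPM, and 0 in both genotype comparisons under every alternative run. In the interaction it became 1 (Maf) with no filter on low counts, where 31 of 22767 genes passed. For intron reads in CD18wt Treg it was 1 with a replicate block or with the exon library sizes, and 1 to 4 with 1 library left out; for CD18Foxp3 Treg it was 2 to 4. The cause was not tested. Scaling moved the split of higher and lower calls: over all genes, calls on stimulation in CD18wt Treg split 2234 higher and 1779 lower under TMM, 2849 and 1196 by library size alone, and 3589 and 858 on log2(TPM + 1), and in CD18Foxp3 Treg 2516 and 2120, 3158 and 1588, and 3783 and 1201.

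Log2 fold changes that changed sign were all of factors not past the threshold. On stimulation these were Gata3 (0.016 and 0.017 on TPM with pseudocounts 1 and 0.1) and Id2 (0.21 and 0.22) in CD18wt Treg, and Batf (0.065 by library size, 0.21 and 0.21 on TPM) and Id2 (-0.033 with upper-quartile scaling) in CD18Foxp3 Treg, and in the interaction Nfil3 (-0.00476 and -0.00821 on TPM). With exon library sizes, intron values in CD18Foxp3 Treg turned positive for Batf (0.12), Prdm1 (0.20), Maf (0.25) and Id2 (0.0041). With 1 library left out, the ranges that crossed zero were, in CD18Foxp3 Treg on stimulation, Batf -0.42 to 0.027 and Id2 -0.079 to 0.17; between genotypes unstimulated, Gata3 -0.039 to 0.18 and Id2 -0.028 to 0.35; between genotypes stimulated, Tbx21 -0.59 to 0.047; in the interaction, Nfil3 -0.11 to 0.15, Tbx21 -0.43 to 0.24 and Ikzf3 -0.065 to 0.10; and for Prdm1 introns, -0.060 to 0.48 in CD18wt and -0.33 to 0.012 in CD18Foxp3 Treg.

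Pairing by replicate number was checked because the labels repeat the numbers. Deviations of same-numbered libraries of unstimulated and stimulated cultures correlated at 0.135, 0.070 and 0.147 in CD18Foxp3 and at 0.096, -0.019 and -0.095 in CD18wt Treg. In CD18Foxp3 Treg each library correlated best with its own number, and in CD18wt Treg only replicate 1 did. These values do not settle whether the numbers are pairs. The main tests did not take them as pairs, because the labels do not state pairing. With the replicate block, 6 and 5 factors passed on stimulation in CD18wt and CD18Foxp3 Treg, and 0 passed in the genotype comparisons and the interaction; in introns of CD18wt Treg 1 passed, with Maf at -1.28.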
